A study of Mus musculus with 27 samples.

Results

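Cathepsins are the proteases of the lysosome, and 10 of them were followed across sorted immune cells of mice that carry or lack Mbd2, a protein that binds methylated CpG sites in DNA and recruits repressors to them. The genes Ctsa, Ctsb, Ctsc, Ctsd, Ctse, Ctsh, Ctsk, Ctsl, Ctss and Ctsz were chosen by symbol alone, and all 10 were on the array. They had 20 probes among the 45281 probes and 30869 gene symbols of the deposited table: 5 for Ctsa, 3 for Ctsc, 2 each for Ctsb, Ctse, Ctsh and Ctsz, and 1 each for Ctsd, Ctsk, Ctsl and Ctss.

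Gene expression was read on 27 one-colour Illumina MouseWG-6 BeadChip arrays. From the colon of mice given 2% dextran sodium sulphate (DSS), which injures the epithelium and causes colitis, came monocytes and macrophages with 5 wild-type (WT) and 5 Mbd2-/- arrays each, and CD103+ cross-presenting dendritic cells (cDC1s) with 2 WT and 3 Mbd2-/- arrays. Splenic CD4 T cells, taken 6 weeks after T cells were transferred to cause colitis, had 1 WT and 1 Mbd2-/- array. By the study's methods the WT mice were littermates, each replicate was pooled from 1 or more mice, and replicates came from separate experiments that the labels do not name, so that pooling and experiment could not be entered in any test. Mbd2 was missing from all cells of the Mbd2-/- mice, not from the sorted type alone. Mice were matched for age and sex by the study's methods, and the labels give neither for single arrays. For the T cells the labels give a genotype without saying whether it is that of the transferred cells or of the host, so WT and Mbd2-/- T cells below means arrays labelled so.

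The cells had been sorted as CD11b+ Ly6C+ monocytes, CD11b+ Ly6C- MHC-II+ F4/80+ macrophages and CD11b- CD11c+ CD103+ cDC1s, and their marker genes were highest in the cells so named. The mean log2 level of 11 macrophage markers was 10.93 to 11.29 on the macrophage arrays and 6.71 to 7.66 on the cDC1 arrays, while that of 9 cDC1 markers was 8.27 to 8.44 on the cDC1 arrays and at most 6.21 elsewhere in the colon. Signal of other cells was present too: of 12 epithelial markers, 10 or 11 were detected on every colon array. Their mean log2 level was 7.61 to 9.19 there, against 4.75 and 4.63 on the WT and Mbd2-/- T cell arrays. The part of epithelial RNA in the values below was not tested. The single Mbd2 probe was detected on 0 of the 27 arrays, WT included, so it could not check the genotype labels. Average intensity per array ran from 172 to 353, and was lower on the 3 Mbd2-/- cDC1 arrays (172 to 228) than on both WT ones (265 and 292). The sources used here name no chip, but a chip of this type holds 6 arrays, and among the table's columns taken 6 at a time the WT cDC1 arrays stood with the monocyte arrays and the Mbd2-/- cDC1 arrays with the macrophage or T cell arrays. If those columns were chips, chip cannot be told apart from genotype in cDC1s, or from cell type between monocytes and macrophages. The same would hold between WT cDC1s and WT macrophages and between Mbd2-/- cDC1s and Mbd2-/- monocytes. It would also hold for any difference in genotype effect between cDC1s and another cell type. In RNA from sorted cells, fewer cells of a type in the gate and less RNA per cell cannot be told apart either.

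Cathepsins are made as inactive precursors, carried to endosomes and lysosomes mostly by mannose 6-phosphate receptors, and activated there by low pH and by other proteases. They break down proteins taken up by the cell, and in antigen-presenting cells they cut the invariant chain and make peptides for MHC class II. Ctsb, Ctsc, Ctsh, Ctsk, Ctsl, Ctss and Ctsz are cysteine proteases, Ctsd and Ctse are aspartic proteases, and Ctsa is a serine carboxypeptidase that also shields the hydrolases Glb1 and Neu1. Tissue macrophages carry large lysosomes, whereas cDC1s are known for sparing antigen for cross-presentation.

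Levels below are log2 intensities after background correction and quantile normalisation over the 25 colon arrays, and each gene is given by its brightest probe. A probe counts as detected where its deposited detection p was under 0.05. A gene passed a comparison where its adjusted p, from limma with Benjamini-Hochberg adjustment over all probes tested, was under 0.05, with no minimum fold. A level of one probe says nothing about the level of another, since probes differ in how well they hybridise. Labels do not say whether arrays of a group came from separate mice, so p-values measure the spread between arrays.

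Between cell types, 4 to 8 of the 10 cathepsins passed in each comparison, where 23.5% to 46.6% of all probes did. Between genotypes at most 1 cathepsin passed, where 1.80% to 6.68% of all probes did. The widest range was that of Ctsa, whose level on single arrays ran from 6.04 in a WT cDC1 array to 12.69 in a WT macrophage array. The WT monocyte arrays read 9.97, 9.69, 10.30, 9.86 and 9.49 and the WT macrophage arrays 11.65, 12.69, 11.87, 11.93 and 11.76. Both WT cDC1 arrays, at 6.04 and 6.49, lay below every monocyte and macrophage array. By its brightest probe, Ctsa therefore ran highest in macrophages, next in monocytes and lowest in cDC1s, with no overlap between cell types. Its other probes did not show the macrophage to monocyte difference, as given below. By the brightest probe Ctsa was 4.34-fold higher in WT macrophages than in WT monocytes (log2 fold change 2.12, SE 0.21, adjusted p = 7.53e-08). It was 52.5-fold lower in WT cDC1s than in WT macrophages (log2 fold change -5.71, SE 0.27, adjusted p = 1.07e-13). Over the settings tried the latter log2 fold change ran from -5.95 to -4.78, so the size of the fall depends on the processing.

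**Figure D1:**
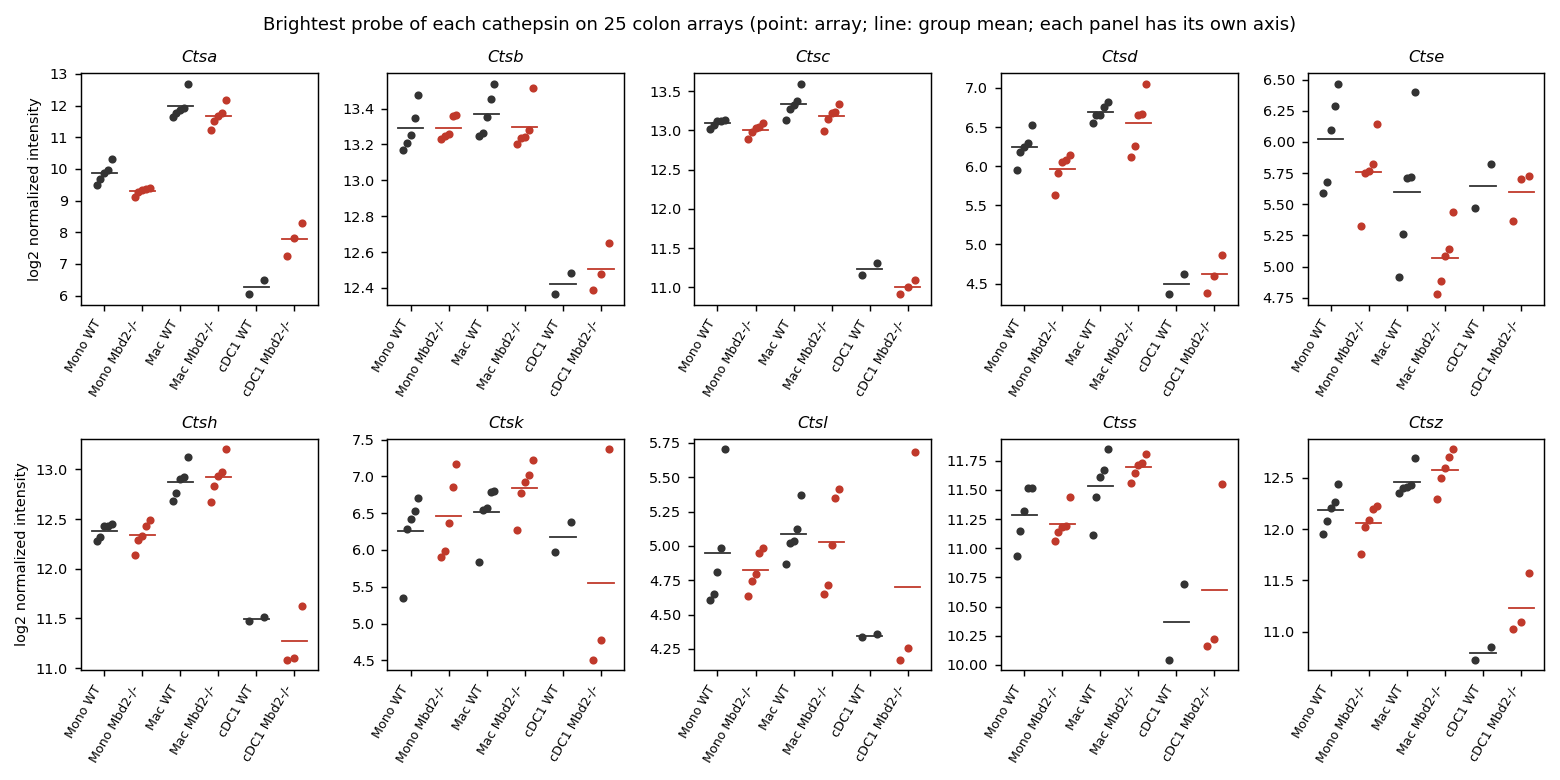
Log2 level of the brightest probe of each of the 10 cathepsins on the 25 colon arrays, 1 point per array, by cell type (Mono, monocytes; Mac, macrophages) and genotype (black, WT; red, Mbd2-/-), with a line at each group mean and an axis of its own per gene. The Ctsa points fall into separate bands for macrophages, monocytes and cDC1s, and the Ctse, Ctsk and Ctsl points do not.

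Promoter sequence was at hand for 7 of the 10 genes, from RefSeq on GRCm38.p6, and is shown because Mbd2 binds methylated CpG: the 250 bases before a start site, with CpG in capitals. Methylation was not measured here. Ctsa had a start at each of 2 places, with 10 CpGs before the first and 6 before the second. Ctsd had the most CpGs of the windows found, 27, and Ctsk had 0, against a median of 6 (quartiles 2 and 16) over 32851 windows, of which 7.87% had none. The windows of Ctsa (first start, chr2:164832622-164832871, plus strand), Ctsd (chr7:142387828-142388077, minus strand) and Ctsk (chr3:95498960-95499209, plus strand) are printed because Ctsa had the genotype difference described below, and Ctsd and Ctsk had the most and the fewest CpGs.
Ctsa: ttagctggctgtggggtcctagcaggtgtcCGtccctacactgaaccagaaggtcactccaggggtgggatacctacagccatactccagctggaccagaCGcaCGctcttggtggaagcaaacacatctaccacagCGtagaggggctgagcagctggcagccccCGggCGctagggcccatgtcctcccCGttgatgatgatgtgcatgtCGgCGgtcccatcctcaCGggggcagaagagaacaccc
Ctsd: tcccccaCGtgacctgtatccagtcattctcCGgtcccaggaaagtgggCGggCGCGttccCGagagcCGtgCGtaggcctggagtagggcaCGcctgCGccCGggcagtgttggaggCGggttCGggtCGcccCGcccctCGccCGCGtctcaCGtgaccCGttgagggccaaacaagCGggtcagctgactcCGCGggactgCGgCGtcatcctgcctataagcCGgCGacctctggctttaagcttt
Ctsk: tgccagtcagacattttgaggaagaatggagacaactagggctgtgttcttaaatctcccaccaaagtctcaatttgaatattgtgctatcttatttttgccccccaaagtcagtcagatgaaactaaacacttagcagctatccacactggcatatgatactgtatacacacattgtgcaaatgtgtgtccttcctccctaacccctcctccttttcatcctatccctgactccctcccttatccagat

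The other windows held 4 CpGs for Ctss, 7 each for Ctsl and Ctsz and 9 for Ctsc. The letters CACGTG, which read the same on both strands and form the core that lysosomal regulators of the Tfeb family recognise, were in the windows of 3 of the 7 genes and in 6.02% of all windows. A match of letters is not a bound site. The 30 bases around each are shown with the motif in capitals, and the positions in brackets are those of the 30 bases. The motif itself begins 12 bases before the second Ctsa start (chr2:164833743-164833772, plus strand). In Ctsd it begins 245 and 98 bases before the start (chr7:142388048-142388077 and chr7:142387908-142387937, minus strand), and in Ctsl 236 bases before it (chr13:64370739-64370768, minus strand).
Ctsa second start: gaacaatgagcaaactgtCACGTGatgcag
Ctsd far: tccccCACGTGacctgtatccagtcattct
Ctsd near: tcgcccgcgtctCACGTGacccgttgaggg
Ctsl: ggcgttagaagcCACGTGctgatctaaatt

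Between WT macrophages and WT monocytes, 4 of the 10 cathepsins passed as higher in macrophages and 0 as lower, where 14% of all 16510 probes tested passed as higher, 9.48% as lower and 23.5% in either direction, and 16.6% had groups that did not overlap. The median log2 fold change was 0.25 over the cathepsins and 0.0047 over all probes. After Ctsa the largest was Ctsh, an aminopeptidase, with WT monocyte arrays between 12.27 and 12.45 and WT macrophage arrays between 12.68 and 13.12, so that the groups did not overlap (log2 fold change 0.50, adjusted p = 0.00273). Ctsd, a general aspartic protease of the lysosome, lay between 5.95 and 6.53 in WT monocytes and between 6.55 and 6.82 in WT macrophages (0.44, adjusted p = 0.0357). Ctsc, which activates granule serine proteases, was higher by 0.25 (adjusted p = 0.0437), a call that was lost in 13 of 22 other settings, as was that of Ctsd. The other Ctsc probes, at 0.36 and 0.45, passed as well (adjusted p = 0.0305 and 0.00332). Ctsb, Ctse, Ctsk, Ctsl, Ctss and Ctsz did not pass, with log2 fold changes from -0.42 for Ctse to 0.27 for Ctsz.

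In Mbd2-/- cells, 4 cathepsins passed as higher in macrophages than in monocytes and 1 as lower, against 14.3% and 13.1% of all probes (27.4% together, with 21.9% not overlapping). Ctsa was 5.20-fold higher (log2 fold change 2.38, adjusted p = 1.09e-08). Ctsh (0.59, adjusted p = 5.10e-04), Ctsd (0.58, adjusted p = 0.00544) and the carboxypeptidase Ctsz (0.52, adjusted p = 0.00307) were also higher. Ctse, an endosomal aspartic protease, was lower by 0.69 on its brightest probe (adjusted p = 0.0216), while its second probe differed by -0.03 and did not pass. Ctss, the main protease that trims the invariant chain, missed the threshold at 0.49 (adjusted p = 0.0786).

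**Figure D2:**
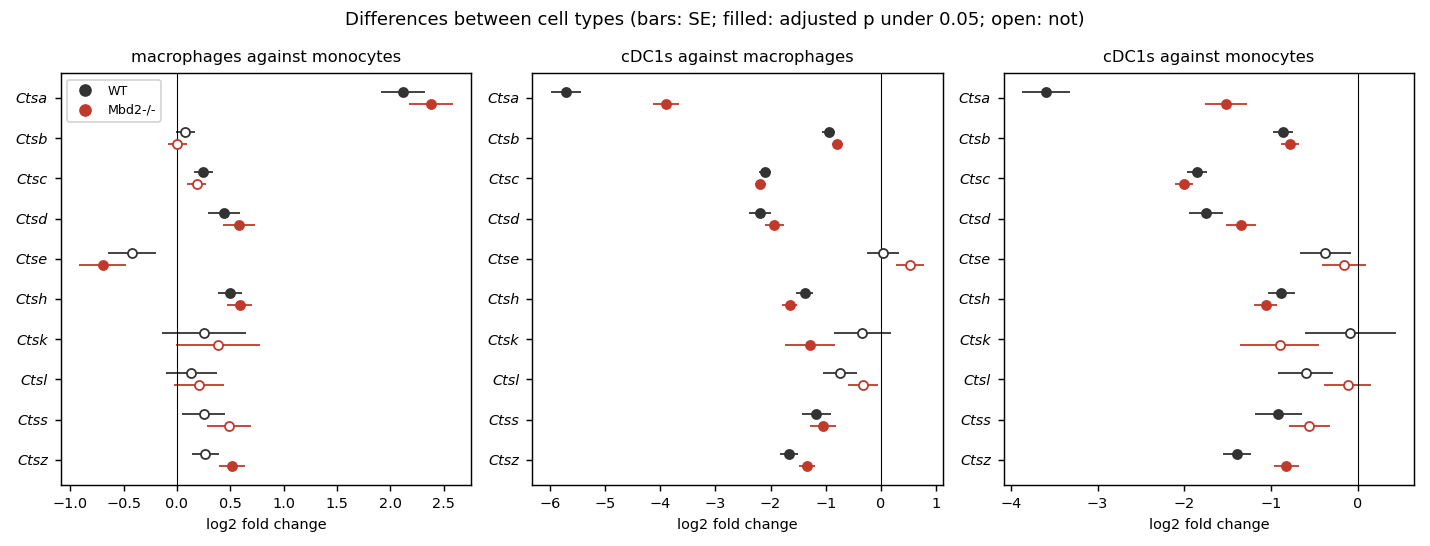
Log2 fold change of each cathepsin between cell types, with its SE, in WT and in Mbd2-/- cells; filled points have an adjusted p under 0.05. The cDC1 comparisons lie below 0 for Ctsa, Ctsb, Ctsc, Ctsd, Ctsh, Ctss and Ctsz in both genotypes, with Ctsa farthest at -5.71 in WT cells.

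cDC1s had lower levels of most of these genes than either other colon cell type. Against WT macrophages, 7 of 10 cathepsins passed as lower in WT cDC1s and 0 as higher, where 18.6% of all 19747 probes passed as lower, 19.5% as higher and 38.1% in either direction, and 42.8% did not overlap. The median log2 fold change was -1.28 over the cathepsins and -0.045 over all probes. Besides Ctsa these were Ctsc (4.30-fold lower), Ctsz (3.17-fold), Ctsh (2.61-fold), Ctss (2.25-fold), Ctsb (1.93-fold) and Ctsd, with adjusted p from 9.59e-13 for Ctsc to 0.00131 for Ctss. Ctsd was detected on 1 of the 2 WT and 1 of the 3 Mbd2-/- cDC1 arrays, so its levels there are close to background and the size of its fall is uncertain. Over the settings tried its log2 fold change against WT macrophages ran from -2.32 to -0.91, and it passed in each of them. Ctss, the gene with the most spread of these, read 10.69 and 10.04 in WT cDC1s and 11.11 to 11.85 in WT macrophages. Its call was lost without WT cDC1 array 26 (log2 fold change -0.85, adjusted p = 0.0683).

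Ctsb, an abundant lysosomal endopeptidase, illustrates how narrow most of the groups were. Its levels were 12.48 and 12.36 in WT cDC1s, 13.17 to 13.48 in WT monocytes and 13.25 to 13.54 in WT macrophages. It was lower in cDC1s than in either other cell type but did not pass between macrophages and monocytes (log2 fold change 0.08, adjusted p = 0.573). Ctsc had the same order of levels, at 11.16 and 11.31 in WT cDC1s, 13.01 to 13.13 in monocytes and 13.13 to 13.59 in macrophages.

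In Mbd2-/- cells 8 of 10 passed as lower in cDC1s than in macrophages, with 21.3% of all probes lower and 45.4% passing in either direction. Ctsa was 14.9-fold lower (log2 fold change -3.90, adjusted p = 4.98e-12), Ctsc 4.55-fold, Ctsh 3.14-fold, Ctsz 2.54-fold, Ctss 2.07-fold and Ctsb 1.73-fold lower. Ctsd passed as well, at log2 fold changes from -2.13 to -0.80 over the settings. The eighth, Ctsk, a collagen-cutting protease best known from osteoclasts, was lower by 1.29 (adjusted p = 0.0240), but missed the threshold without array 27 (-0.91, adjusted p = 0.168) or without array 30 (-0.78, adjusted p = 0.230). Ctse and Ctsl did not pass in either genotype. Ctsl, a cysteine endopeptidase, was at the edge of what the array could read in cDC1s. Its probe was detected on 0 of 2 WT and 1 of 3 Mbd2-/- cDC1 arrays, and against Mbd2-/- macrophages it stood at -0.32 (adjusted p = 0.356), or at -0.82 (adjusted p = 0.00850) without array 28.

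Against monocytes, 7 of 10 cathepsins passed as lower in WT cDC1s (16.8% of all probes lower, 19.4% higher, 36.2% in either direction, and 45.2% with no overlap) and 6 of 10 in Mbd2-/- cDC1s (21.7% lower, 46.6% in either direction). Ctsa was 12.1-fold lower in WT and 2.87-fold lower in Mbd2-/- cDC1s. Ctsc was 3.62-fold and 4.01-fold lower in the same order. Ctsd passed as lower in both, at log2 fold changes over the settings from -1.88 to -0.67 in WT and from -1.49 to -0.49 in Mbd2-/- cells. Ctss passed in WT cells (-0.92, adjusted p = 0.00909) but not without WT array 26 (-0.59, adjusted p = 0.225). In Mbd2-/- cells Ctss stood at -0.56 (adjusted p = 0.0544) and passed without array 30 (-1.01, adjusted p = 1.41e-04).

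Genotype gave 1 passing cathepsin in 3 cell types. In cDC1s, Ctsa read 6.04 and 6.49 on the WT arrays and 7.81, 7.24 and 8.28 on the Mbd2-/- arrays, so every Mbd2-/- array lay above both WT arrays. It was 2.85-fold higher without Mbd2 (log2 fold change 1.51, SE 0.30, 95% interval 0.89 to 2.13, adjusted p = 0.00613). It was the 1 of 9 cathepsins tested that passed, where 3.43% of all probes passed as higher and 6.68% in either direction. Groups did not overlap for 3 of the 9, Ctsa, Ctsc and Ctsz, where 31.8% of all probes did not overlap with these few arrays.

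The Ctsa difference depended on how arrays were put on a common scale. In the deposited intensities, before any scaling, the WT cDC1 arrays read 163 and 168 and the Mbd2-/- arrays 234, 136 and 220, which overlap. With median in place of quantile scaling it was 0.81 (adjusted p = 0.271), and without WT array 23 it was 1.29 (adjusted p = 0.0743). The 11 macrophage markers moved somewhat with it: their mean log2 was 6.71 and 6.86 on the WT and 7.07, 6.80 and 7.66 on the Mbd2-/- cDC1 arrays, against 10.93 or more on every macrophage array. The mean of 8 monocyte markers was 6.42 and 6.72 on the WT and 7.18, 7.20 and 7.05 on the Mbd2-/- cDC1 arrays. On every monocyte array it was 10.07 or more. The part of either set of markers in the Ctsa difference was not tested.

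In monocytes 0 of 10 cathepsins passed between genotypes by limma, with 1 at an unadjusted p under 0.05 and 1.80% of all probes passing. That gene was again Ctsa, in the other direction. The Mbd2-/- monocyte arrays read 9.41, 9.26, 9.36, 9.10 and 9.34, all below the WT range of 9.49 to 10.30. The log2 fold change was -0.57 (SE 0.21, adjusted p = 0.184), and it passed when arrays were weighted by quality (-0.61, adjusted p = 0.0388). Non-overlapping groups made up 4.85% of all probes in that comparison. In macrophages 0 of 10 passed as well, against 5.62% of all probes, and Ctsa differed by -0.31 (adjusted p = 0.379). The gene at an unadjusted p under 0.05 there was Ctse, with WT arrays from 4.92 to 6.40 and Mbd2-/- arrays from 4.78 to 5.44 (-0.54, SE 0.22, adjusted p = 0.147).

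**Figure D3:**
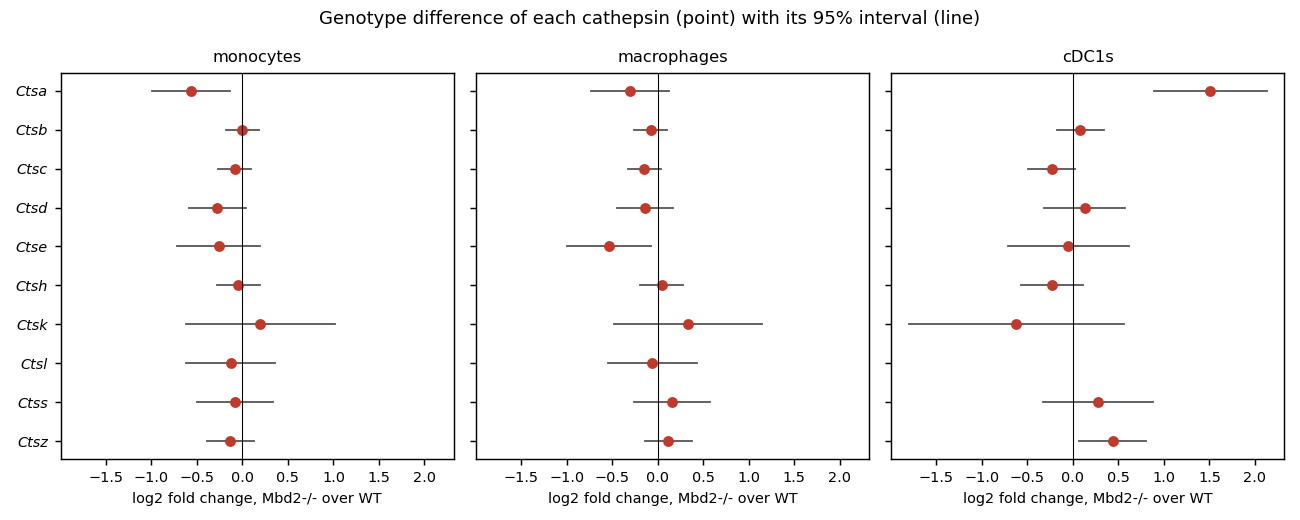
Log2 fold change of each cathepsin in Mbd2-/- against WT cells with its 95% interval, in monocytes, macrophages and cDC1s. The Ctsa point in cDC1s, at 1.51, is the 1 that passed; Ctsl was not tested in cDC1s because too few arrays detected it.

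No other cathepsin passed between genotypes in this fit, and the intervals leave room for differences. Point estimates ran from -0.28 to 0.20 in monocytes, with 95% bounds of -0.72 and 1.01, and from -0.54 to 0.33 in macrophages, with bounds of -0.99 and 1.15. In cDC1s, where 8 of those 9 were tested, they ran from -0.62 to 0.44 with bounds of -1.80 and 0.88. The lowest there was Ctsk, which moved to -1.55 and passed (adjusted p = 0.0424) without array 28. The highest was Ctsz, which read 10.73 and 10.85 in WT and 11.02, 11.10 and 11.57 in Mbd2-/- cDC1s (0.44, adjusted p = 0.132; second probe 0.44, adjusted p = 0.0564). The Ctsz difference was -0.013 with median scaling. Over the members the median was -0.11 in monocytes, -0.067 in macrophages and 0.083 in cDC1s, beside -0.020, -0.066 and 0.026 over all probes.

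The effect of genotype on Ctsa differed between cell types when that difference was itself tested. It was higher in cDC1s than in macrophages by 1.82 (SE 0.36, adjusted p = 0.00876), where 3.12% of all probes passed in that direction. It was higher in cDC1s than in monocytes by 2.08 (SE 0.36, adjusted p = 0.00845), where 0.484% did. Between macrophages and monocytes 0 of 10 cathepsins passed by limma and 0 were at an unadjusted p under 0.05, with 0.0266% of all probes passing in either direction and Ctsa at 0.26 (adjusted p = 0.902). With median scaling neither cDC1 difference passed.

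The 5 Ctsa probes did not behave alike. Over the 25 colon arrays the brightest correlated with the others at r = 0.78, 0.71, -0.14 and -0.21, as a description over arrays that share cell types. The pair with r of 0.71 and 0.78 were also lower in cDC1s: in WT cells by 1.36 and 1.53 against macrophages and by 1.52 and 1.58 against monocytes. Of that pair, the first was detected on 0 of the 5 cDC1 arrays, so its fall against WT macrophages is a bound, at least 2.18-fold. Neither was tested between genotypes in cDC1s. The remaining pair gave -0.63 (adjusted p = 0.714) and 0.04 (adjusted p = 0.951) there. None of the 4 other probes passed between WT macrophages and WT monocytes (-0.15 to 0.09), where the brightest gave 2.12. Thus the drop in cDC1s was seen by 3 of 5 probes, and both the macrophage to monocyte difference and the genotype difference in cDC1s by the brightest alone. The deposited table does not hold the probe sequences, and which transcripts each probe reads was not analysed here.

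**Figure D4:**
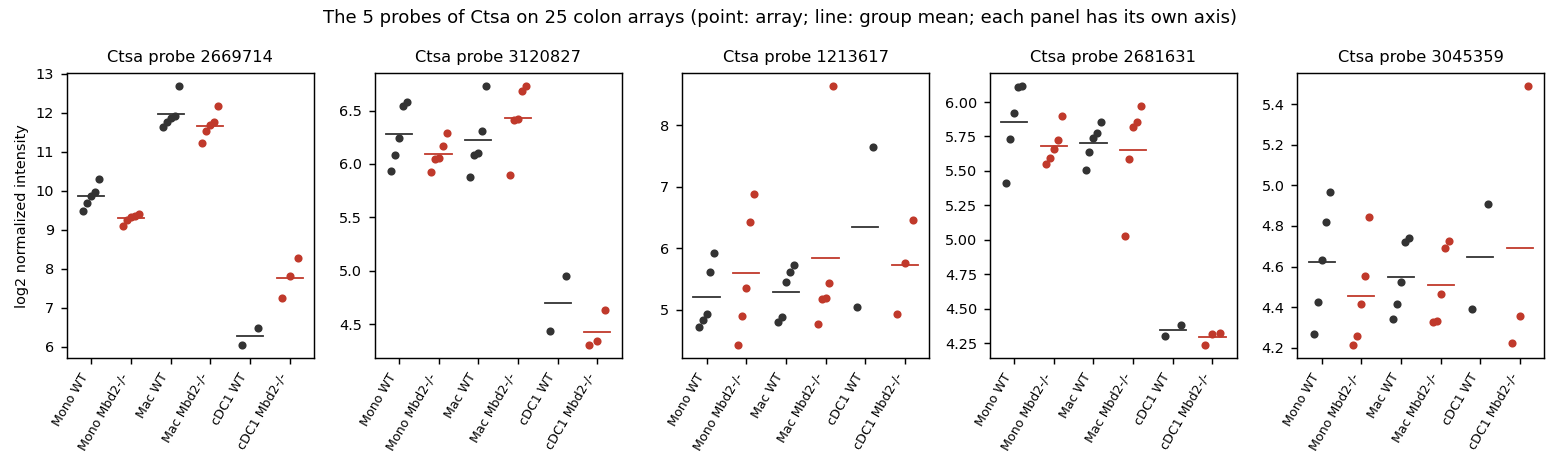
Log2 level of the 5 Ctsa probes on the 25 colon arrays by cell type and genotype, 1 panel per probe. The brightest probe spans 6.04 to 12.69; of the others, those with r of 0.71 and 0.78 also fall in cDC1s.

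For the other cathepsins with several probes, r to the brightest probe was 0.99 and 0.98 for Ctsc, 0.97 for Ctsz and 0.93 for Ctsh, but 0.62 for Ctse and 0.61 for Ctsb. The Ctse probes differed most between comparisons: in Mbd2-/- cDC1s against macrophages they gave 0.53 and -0.07, neither of which passed. A second Ctsc probe in macrophages, lower by 0.34 without Mbd2, came close to the threshold (adjusted p = 0.0594). So did the second Ctse probe in monocytes, lower by 0.53 (adjusted p = 0.0607). For neither probe did the groups overlap, as for 5.28% of all probes in macrophages and 4.85% in monocytes.

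Ctsk, and Ctsl more weakly, followed markers of other cells. Over the 25 colon arrays Ctsk correlated with the mean of 8 stromal and endothelial markers (collagens, Dcn, Lum, Pecam1, Cdh5 and Acta2) at Pearson r = 0.83 and Spearman rho = 0.77, and at r = 0.89 after each group's mean was removed. Ctsl did so at 0.44, 0.39 and 0.49. All 8 markers were detected on every colon array. The 3 genes most like Ctsk were Cxcl12 (r = 0.91), Col4a1 (0.89) and Sfrp1 (0.88), and those most like Ctsl were Gp38 (0.71), Smtn (0.69) and Efemp2 (0.68). In Mbd2-/- cDC1s the array with the high Ctsk level, 7.37 against 4.78 and 4.51, was also the one with the high stromal mean, 8.02 against 6.70 and 6.71. The same array had the high Ctsl level, 5.68 against 4.17 and 4.26. In WT cDC1s, where Ctsk did not pass against macrophages, the stromal mean was 7.93 and 7.39. The part of stromal RNA in the Ctsk values was not tested.

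**Figure D5:**
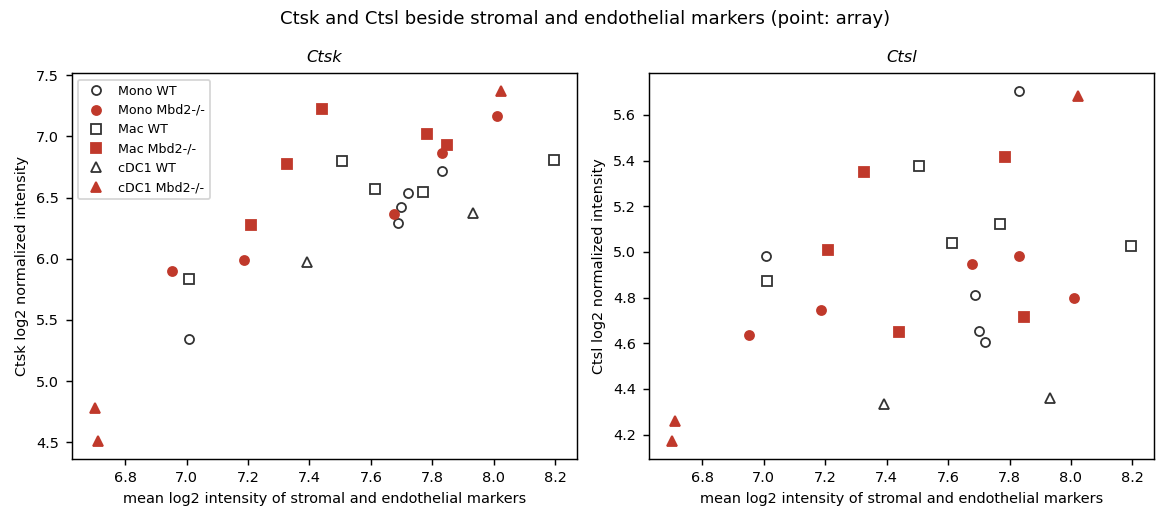
Log2 level of Ctsk and of Ctsl on each of the 25 colon arrays against the mean log2 level of 8 stromal and endothelial markers on that array. Points for Ctsk rise with the markers (Pearson r = 0.83) and those for Ctsl less so (0.44).

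Of the remaining genes, 7 followed the macrophage markers across the colon arrays and Ctse did not. Correlation with the mean of the 11 macrophage markers was 0.96 for Ctsa, 0.95 for Ctsd and Ctsh, 0.94 for Ctsz, 0.92 for Ctsc, 0.88 for Ctsb and 0.83 for Ctss, against -0.27 for Ctse. After each group's mean was removed it was 0.64 for Ctss, 0.42 for Ctsd, 0.34 for Ctsa, 0.32 for Ctsz, 0.24 for Ctsb, 0.20 for Ctsc and -0.13 for Ctsh. Closest to Ctsa over 25 arrays were Slc37a1, 2310079N02Rik and Pld3, each at r = 0.98. Closest to Ctsc were Scamp1 (0.99), Lamp1 and Apobec1 (both 0.98), and closest to Ctsd were Itgb5 (0.97), Eng and Lhfpl2 (both 0.96). Ctsh lay closest to Arhgef3, 9530018I07Rik (both 0.97) and Dab2 (0.96), Ctsz to Itgb5 (0.96), Cd300a and Rin2 (both 0.95), and Ctsb to 4732429D16Rik (0.97), Clec4a3 (0.96) and Gngt2 (0.95). For Ctss they were Pkig (0.90), Sepp1 (0.88) and Tgfbr1 (0.87), and for Ctse Hmha1 (0.86), Cyb561d1 and Copz1 (both 0.82).

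Genes that work beside the cathepsins were counted in lists of their own. Of 34 other lysosomal hydrolases and membrane proteins, 20 passed as higher and 0 as lower in WT macrophages against monocytes, and 23 as lower and 5 as higher in WT cDC1s against macrophages. Over all probes the shares were 14% higher and 9.48% lower in the former and 18.6% lower and 19.5% higher in the latter. Of 14 genes that process or deliver cathepsins, 10 were lower and 1 higher in WT cDC1s than in macrophages, among them the activating protease Lgmn (-2.55), the peptidase Tpp1 (-2.85) and Neu1 (-1.50), the sialidase that Ctsa stabilises. Of 14 subunits of the vacuolar ATPase, which acidifies the lysosome, 7 were lower and 3 higher. Between WT macrophages and monocytes, 5 of the 14 processing and delivery genes were higher and 1 lower (median 0.17), and 4 of the 14 ATPase subunits were higher and 0 lower (median -0.031).

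Among 10 antigen processing partners, 3 were higher in WT cDC1s than in macrophages and 0 lower, with a median of 0.13 and 7 that did not pass, where 19.5% of all probes were higher. Those were H2-Oa (2.60), H2-Ob (2.58) and H2-DMb2 (0.86), which edit MHC class II loading. Ciita (1.87) and Irf8 (1.50), regulators of MHC class II genes and of cDC1s, were higher too. Of 7 inhibitors, Stfa2 (1.54) and Cst3 (0.37) were higher, and Cstb (-1.67), the cytosolic stefin, and Serpinb6a (-1.45) were lower. Among cathepsins outside the set, Ctsf was higher in WT macrophages than in monocytes (1.20) and lower in WT cDC1s than in macrophages (-1.73). Ctsw, a protease of cytotoxic lymphocytes, was higher in WT cDC1s than in macrophages (2.47). Its levels on the cDC1 arrays, 9.32 and 7.29 in WT and 8.39, 9.08 and 7.24 in Mbd2-/- cells, followed the mean of 9 T cell markers there (7.37 and 6.23, then 6.84, 7.64 and 6.11), whose part in it was not tested.

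Between genotypes few of these genes passed. Among lysosomal genes in cDC1s, the glycan-degrading enzymes Sgsh (1.29, adjusted p = 0.00692), Gaa (0.95, adjusted p = 0.00498) and Naglu (0.72, adjusted p = 0.0159) were higher without Mbd2. Of the 33 tested, 0 were lower, where 3.43% of all probes passed as higher and 3.25% as lower. These calls were not tried with median scaling or any other setting. Sgsh read 5.16 and 5.88 in WT and 6.68, 6.76 and 6.98 in Mbd2-/- cDC1s, and Gaa 7.83 and 8.32 against 8.92, 9.14 and 9.02. Neither overlapped, as was so for 31.8% of all probes in that comparison. The ATPase subunit Atp6v0a1 was lower without Mbd2 in monocytes (-0.70, adjusted p = 0.00546) and in macrophages (-0.68, adjusted p = 0.00613). In macrophages the thiol reductase Ifi30 (0.50, adjusted p = 0.0346) and the serpin Serpina3g (1.50, adjusted p = 0.0256) were higher and Ids (-0.50) was lower. Serpina3g read 9.71, 10.31 and 9.78 on WT macrophage arrays 11, 12 and 13, but 11.53 and 11.01 on arrays 14 and 15. The Mbd2-/- macrophage arrays read 11.47 to 12.29, which overlaps the WT ones. In monocytes the inhibitor Spint1 was higher (0.55, adjusted p = 0.0380). Of all probes, 1.80% passed between genotypes in monocytes and 5.62% in macrophages, in either direction.

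The splenic CD4 T cells, with 1 array per genotype, allow no test, and all T cell values come from a normalisation of the 27 arrays together. Many cathepsins were lower in T cells than in the colon cells: Ctsc, Ctsh, Ctsk, Ctss and Ctsz were below all 25 colon arrays on both T cell arrays, as were 12.5% of all probes. Ctsh read 6.21 in WT and 6.40 in Mbd2-/- T cells, against 11.05 to 13.19 in the colon cells, and Ctss 8.87 and 8.84 against 10.01 to 11.81. Ctsk and Ctsl were not detected in T cells. On both arrays Ctsa was below 24 and Ctsb below 23 of the 25 colon arrays. Ctsd lay within the colon range at 6.06 and 6.48, above 9 colon arrays and below 9 on both T cell arrays. Ctse was higher, at 7.18 and 7.62 against 4.77 to 6.46 in the colon, and its second probe, at 6.59 and 6.41 against 4.41 to 5.57, was also above all 25; 15.3% of all probes were above every colon array. Ctsa also split by probe here, at 5.88 and 6.13 on its brightest probe but 8.43 and 8.88 on the one with r of -0.21, which exceeded 24 of the 25 colon arrays.

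Between the T cell arrays, Ctsz was higher in Mbd2-/- cells by 1.04 (7.84 and 8.88; second probe 0.72), as were 2.32% of all probes by at least 1 on the log2 scale. Ctsc was lower in Mbd2-/- cells on its 3 probes, by 0.74 to 0.96, with 10.03 in WT and 9.22 in Mbd2-/- cells on the brightest. The WT T cell array also carried far more signal of 9 neutrophil markers, which summed to 22529 in deposited intensity against 3249 on the Mbd2-/- array. Ctsg, a neutrophil granule cathepsin outside the set, read 7.15 and 4.32 in the same order. Their part in the Ctsc and Ctsz values was not tested. The T cell markers themselves were alike, with mean log2 levels of 11.32 and 11.39.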

How the data were processed

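The authors deposited 1 table of summarised bead intensity per probe for the series, which per the file headers had neither normalisation nor background subtraction, together with a detection p-value per probe and array that they had computed from negative control beads. The labels name lumi and limma for their own normalised log2 values, which were not used here. Of the signal columns, 3 belong to no sample given here and were left out.

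From the deposited intensities, background was corrected by normexp with 936 negative controls (limma 3.58.1 in R 4.3.3, offset 16), and log2 values were quantile normalised over the 25 colon arrays. For the T cell values and the means of marker lists they were normalised over 27 arrays. Probes entered a comparison if detected (p under 0.05) on a number of its arrays no lower than the size of its smallest group. A single limma model with empirical Bayes over the 6 colon groups gave each comparison, with Benjamini-Hochberg adjustment within it. The study's methods give an adjusted p of 0.01 and a log2 fold change of 1, and its results for these colon cells use 0.05 with that fold; both limits were tried as alternatives. A gene was described by its probe with the highest mean over the colon arrays. Genes most like a cathepsin were the 3 with the highest Pearson r among probes detected on all 25. From each list of related genes up to 4 were named, by size of change among those that passed; an item withheld for evaluation is not reported here. The members, lists and tests were chosen with earlier results of these data known. Median bead number per probe was 27 to 50, and the number of arrays limits the precision. Scripts were tested on simulated data. Promoters are RefSeq sequences on GRCm38.p6, and motifs were counted in Python 3.11.15.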

Additional observations from a re-analysis of the deposited data

Results flagged for a closer look

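In groups of 5 arrays, 1 array stood far from the other 4 for 4 of the 40 pairs of cathepsin and group examined, and chance gives about 1 in 20. Ctsa read 12.69 on WT macrophage array 12, with the next array at 11.93. Ctsb read 13.52 on Mbd2-/- macrophage array 20, with the next at 13.28. Ctsk read 5.84 on WT macrophage array 11, where the next lowest was 6.54, and Ctsz read 12.69 on WT macrophage array 14, with the next at 12.43. The genotype effect on Ctsa differed between cell types by limma: it was higher by 1.82 in cDC1s than in macrophages (adjusted p = 0.00876) and by 2.08 than in monocytes (adjusted p = 0.00845).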

How the results depend on the processing

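No cathepsin that passed changed direction in any setting tried, though 19 of the 40 passing pairs of gene and comparison fell short of the threshold in at least 1. In cDC1s, the count of cathepsins passing between genotypes went from 1 to 0 with median scaling, which shifted the median of all probes to -0.37, and to 0 when only those 5 arrays were fitted (Ctsa 1.39, adjusted p = 0.355). In monocytes array weights gave 1. The difference in genotype effect between cDC1s and macrophages gave 0 with median scaling (Ctsa 1.17, adjusted p = 0.279) and 0 with only those groups (1.79, adjusted p = 0.0746), and that between cDC1s and monocytes 0 with median scaling (1.72, adjusted p = 0.326). For macrophages against monocytes, the WT count of 4 became 2 at an adjusted p of 0.01, 1 with a log2 fold change of at least 1 and 1 with median scaling, and the Mbd2-/- count of 5 became 1 with that fold and 2 with median scaling. WT cDC1s against monocytes went from 7 to 4 with that fold. Of the 79 pairs that did not pass, 27 changed direction in at least 1 setting and 12 passed in at least 1. Among them, in the genotype comparison of cDC1s, Ctss, 0.28, became -0.19 with median scaling. With 1 array left out Ctss ran from -0.18 (without array 30) to 0.60 (without WT array 23), with -0.05 without WT array 26. Ctsz became -0.013 there with median scaling.

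Leaving out 1 array at a time gave 0 to 2 cathepsins between genotypes in cDC1s (0 without WT array 23, 2 without array 28, where Ctsk passed at -1.55, adjusted p = 0.0424) and 0 in monocytes and macrophages. It gave 2 to 4 for WT macrophages against monocytes, 4 to 5 for Mbd2-/- ones, 6 to 7 for WT cDC1s against either other type, and 7 to 9 and 6 to 8 for Mbd2-/- cDC1s against macrophages and monocytes. The differences in genotype effect gave 0 to 2 between cDC1s and macrophages (0 without WT array 23, 2 without array 28), 1 between cDC1s and monocytes, and 0 between macrophages and monocytes. The labels name no pairing, and no number is shared between groups. Monocyte and macrophage arrays with numbers 10 apart had correlations of deviations from -0.02 to 0.56, and as a random block (correlation 0.12) left each count of cathepsins as it was. Arrays in columns of 6 as a random block had a correlation of 0.03. With that block Ctsc no longer passed between WT macrophages and WT monocytes (0.24, adjusted p = 0.0516). The WT cDC1 group rests on 2 arrays, and Ctsd, Ctsk and Ctsl lie near background in cDC1s, where their differences are compressed. Readings were low in monocytes and macrophages too, at deposited intensities of 117 to 228 for Ctsd and 92 to 194 for Ctse. Ctsk read 115 to 290 and Ctsl 93 to 125 there, so differences of these 4 genes between or within those cell types may be compressed as well.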
